A study of Mus musculus with 12 samples.

Results

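The genes described here encode the motors that walk along microtubules and the subunits that attach them to cargo: kinesin heavy chains (Kif), kinesin light chains (Klc), subunits of cytoplasmic dynein 1 and 2 (Dync1 and Dync2), dynein light chains (Dynl) and subunits of the dynein cofactor dynactin (Dctn). They were chosen by symbol and by level. Of 38924 genes in the deposited tables, 63 had a matching symbol once 3 pseudogenes were left out, and 52 of the 63 had a mean of 1 TPM or more over the mice (TPM is abundance scaled by transcript length and library). Kif18a (mean 1.19 TPM) and Kif11 (1.48) lay just inside that limit, and Kif4 (0.9975) and Kif27 (0.995) just outside it. All 52 passed the filter on low counts, as did 9 of the 11 genes below the limit.

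RNA was sequenced from the whole spinal cord of 12 mice aged 8 weeks. Gars encodes glycyl-tRNA synthetase, which charges glycine onto its tRNA; 6 mice were wild type (WT) and 6 carried 1 Gars copy with the P278KY change (heterozygous), and each genotype had 3 mice of either sex. The labels give the mixed strain background B6J;CAST for every mouse, so alleles of either strain can differ from mouse to mouse. Mice carrying Gars P278KY are a model of Charcot-Marie-Tooth disease type 2D, a peripheral neuropathy of long axons. The labels do not say how the allele was made or which mice were littermates. Each library is named by genotype, sex and mouse number.

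Kinesins mostly carry vesicles, RNA and organelles outward along the axon, and dynein 1 with dynactin carries signalling endosomes and worn organelles back to the cell body. Dynein 2 works inside cilia, where it returns cargo from the tip to the base. Motor neurons depend on both directions of transport, and variants in motor genes such as KIF5A, KIF1A, DYNC1H1 and DCTN1 cause inherited disease of motor axons. In whole cord the RNA of neurons, glia, ependyma and vessels is mixed, so fewer cells of a type and less RNA per cell cannot be told apart.

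Libraries held 26982140 to 39339999 expected counts. The summed level of 15 skeletal muscle markers ran from 109.3 to 11991 CPM (counts scaled to a common library size) in WT and from 113.0 to 4653 in P278KY mice, highest in mice 1 to 4, all female. Of 10 sensory ganglion markers the mean log2 CPM was 2.62, 1.75 and 1.35 in mice 7 (P278KY male), 10 (WT female) and 11 (WT male), and at most -0.72 in the others. Motor neuron markers were present in every mouse, and 12 of 21 fell in P278KY cord, where 2.95% of all tested genes fell. Prrxl1 is on both the motor neuron and the sensory ganglion list and did not pass (log2 change 0.29, edgeR adjusted p = 0.106). Of 14 Schwann cell markers 6 fell. Gars mRNA was 129 ± 6.52 CPM (SD, n = 6) in WT and 141 ± 2.95 in P278KY mice (edgeR adjusted p = 0.046, lost in 10 of 12 leave-one-out fits). A change in the coding sequence need not alter the mRNA level, so this does not check the labels.

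Levels between motor genes can be compared per length, on the TPM scale. Of the 52 genes, 20 were at 100 TPM or more and 9 were under 5 TPM. Dynll2, a light chain shared by dynein and myosin V, was highest at 746 ± 47.8 TPM in WT and 725 ± 29.2 in P278KY mice (SD, n = 6). Klc1, a cargo-binding light chain of kinesin-1, followed at 552 ± 41.1 and 551 ± 17.9 TPM. Kif5a, the neuron-specific heavy chain of kinesin-1, was at 496 ± 59.2 and 510 ± 32.5 TPM, and its ranges overlapped those of Klc1. Kif1a, which carries synaptic vesicle precursors, was at 427 ± 27.7 and 449 ± 25.2 TPM. The least abundant were kinesins of cell division, Kif18a (1.19 ± 0.182 and 1.19 ± 0.204 TPM), and Kif11 (1.34 ± 0.431 and 1.61 ± 0.303 TPM).

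**Figure D1:**
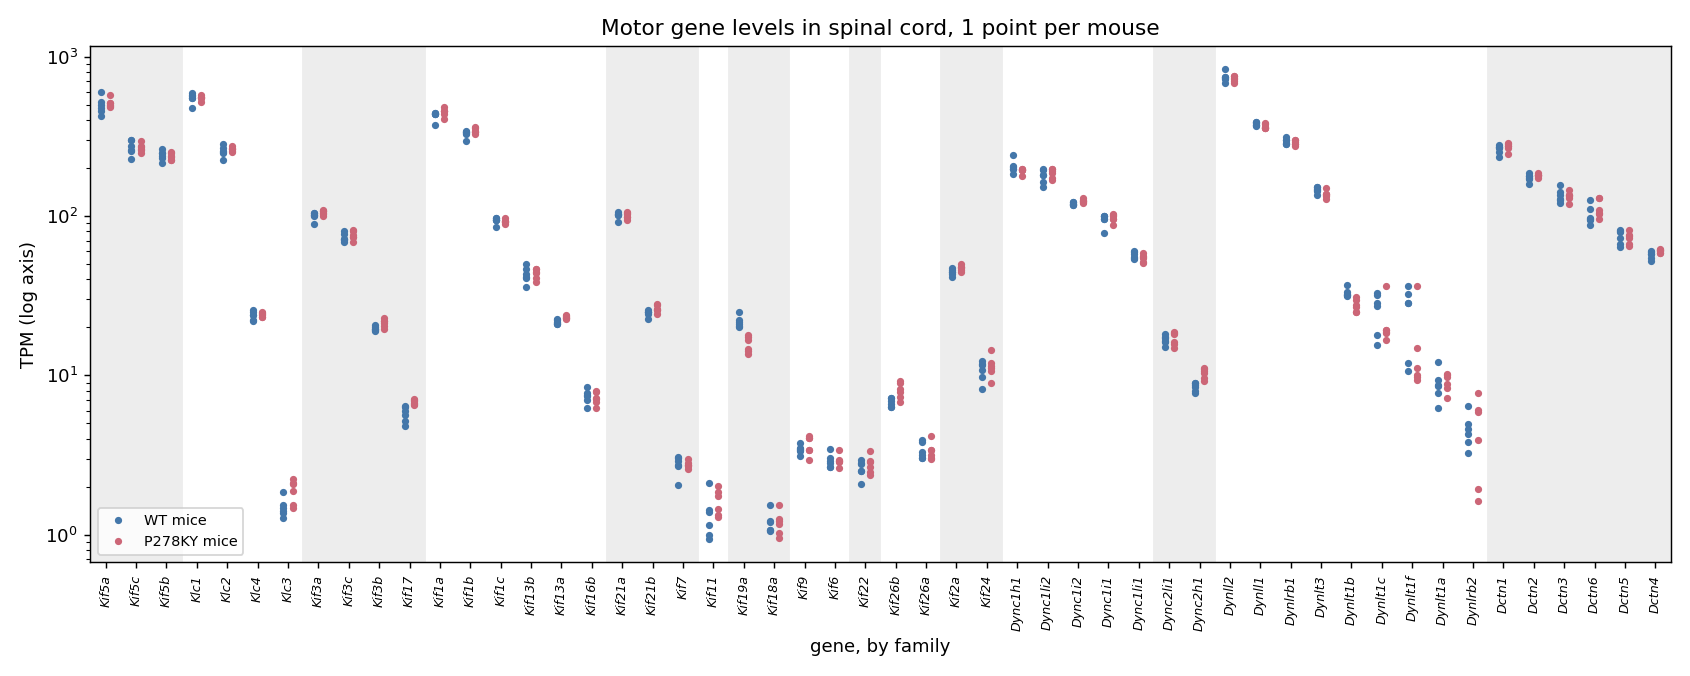
Level of the 52 motor genes in TPM on a log axis, by family (shaded bands) and by falling level within a family. Each point is 1 mouse (blue WT, red P278KY); for most genes the colours overlap, and Dynlt1c and Dynlt1f split into separate levels within a genotype.

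Which motor genes differed between WT and P278KY cord was tested with edgeR's quasi-likelihood test on expected counts, with sex as a covariate and Benjamini-Hochberg adjustment over all 17980 tested genes. At an adjusted p of 0.05, 1 motor gene rose and 5 fell: 6 of 52, where 5.32% of all tested genes passed. Dync2h1 was the 1 that rose (1.92% of the motor genes, 2.36% of all genes). Those that fell were Kif19a, Dynlt1b, Dynll1, Dynlt3 and Kif16b (9.62% of the motor genes, 2.95% of all genes). CPM ranges of the genotypes did not overlap for 4 of the 52 genes, against 3.73% of all genes. DESeq2 called 9 of the 52 (9.23% of all genes it tested). The number that fell was 9 without WT female 1, and 3 without WT male 5, P278KY female 9 or WT male 11. It was 2 without P278KY female 4, P278KY male 6, P278KY male 7 or WT female 10, and also 2 without mice 1 to 4, without mice 7, 10 and 11, and on the TPM scale.

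Most motor genes differed little. The size of the log2 change was under 0.1 in 33 genes and under 0.2 in 45, with a median size of 0.068 against 0.089 over all tested genes. The sign was negative in 38 of 52 genes, against 51.1% of all genes, with a median of -0.04 (all genes -0.003). On log2(TPM + 1) values the median was 0.03 (all genes 0.062), so that sign depends on the scale: 21 of the 52 genes differed in sign between expected counts and TPM.

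**Figure D2:**
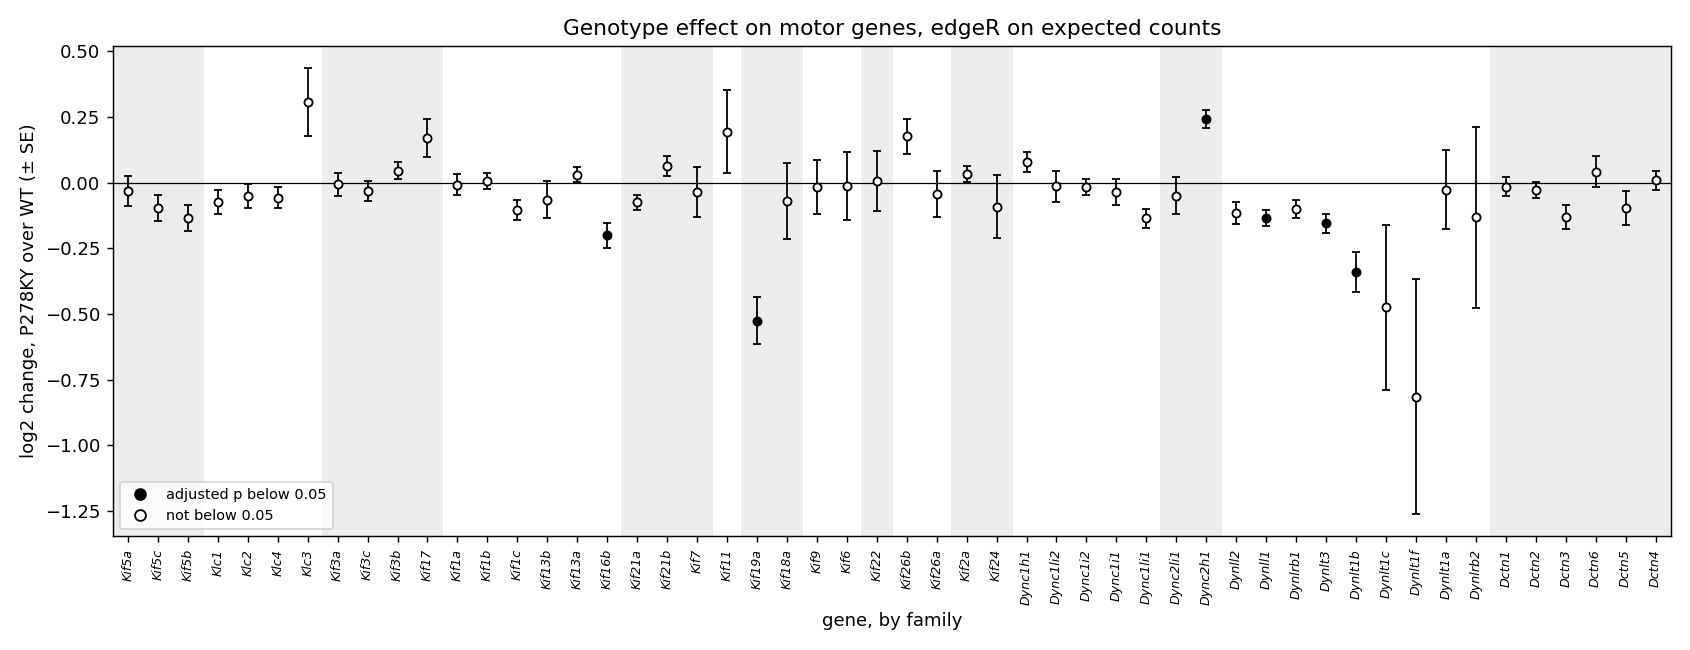
Log2 change of P278KY over WT for the 52 motor genes (points, with SE as bars) by family, in the same order as the plot of levels. Filled points passed an adjusted p of 0.05; Dync2h1 is the filled point above 0 and Kif19a the lowest filled point, and the widest bars are those of Dynlt1f, Dynlrb2 and Dynlt1c.

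Dync2h1, the heavy chain of the ciliary motor dynein 2, rose in P278KY cord. In WT mice its level was 48.0 to 53.9 CPM with a median of 51.8, and in P278KY mice it was 58.6 to 64.4 with a median of 60.6. Every P278KY mouse was above every WT mouse. The log2 change was 0.24 (SE 0.04, adjusted p = 0.00195, edgeR), or 1.18-fold. It was 0.27 (SE 0.05) in females and 0.21 (SE 0.05) in males, and it passed the threshold in every alternative setting run. On the TPM scale the change was 0.26 (limma adjusted p = 0.0209). Dync2li1, the light intermediate chain that binds this heavy chain, did not pass, at 9.63 to 11.6 CPM in WT and 8.82 to 11.1 in P278KY mice (log2 change -0.05, SE 0.07, adjusted p = 0.748).

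Genes of cilia often carry an X-box, the binding site of RFX factors, near their start. The RefSeq promoter window of Dync2h1 (GRCm38.p6, chr9:7177009-7177308, minus strand, 250 bases before to 50 after the start) held 1 copy of the X-box half-site GTTGCC, read on the other strand as GGCAAC and shown in capitals because Dync2h1 was the motor gene that rose:
Dync2h1: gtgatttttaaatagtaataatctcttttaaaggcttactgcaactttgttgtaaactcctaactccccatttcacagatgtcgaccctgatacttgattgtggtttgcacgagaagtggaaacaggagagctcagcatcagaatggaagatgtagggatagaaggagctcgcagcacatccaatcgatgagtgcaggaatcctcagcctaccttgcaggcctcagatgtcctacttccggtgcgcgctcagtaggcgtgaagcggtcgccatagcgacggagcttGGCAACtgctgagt
Searched on both strands, GTTGCC was in 17 of 46 promoter windows of the 39 motor genes that matched the RefSeq table and in 12.51% of 32851 windows of all genes. Windows of Dynll1 and Kif16b, which fell, were among the 17. The GC box GGGCGG was in 34 of the 46 and in 35.66% of all, and CCAAT in 18 of the 46 and in 37.41% of all. Only these exact strings were searched for, so other forms of the X-box in these windows, that of Dync2h1 included, are not marked or counted. A match is a string of letters and not a measured binding site. GENCODE M21 bounds Dync2h1 at chr9:6928503-7184446 on the minus strand, so its outermost start there lies upstream of the window shown.

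Kif19a, a kinesin-8 that trims microtubules at the tips of motile cilia, had the largest change among the genes that passed. Its level was 23.1 to 28.4 CPM in WT mice (median 27.1) and 14.2 to 20.8 in P278KY mice (median 19.0), with no overlap. The log2 change was -0.53 (SE 0.09, adjusted p = 0.00525, edgeR), so that P278KY cord held 0.695 of the WT level. It was -0.39 (SE 0.12, adjusted p = 0.191) in females and -0.66 (SE 0.12, adjusted p = 0.0236) in males, and the difference between the sexes did not pass. It too passed in every alternative setting run, with -0.45 on the TPM scale.

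Markers of ependymal cells, which bear the motile cilia of the cord, were read beside Kif19a. Of 11 tested, Tppp3, a tubulin-binding protein, fell (-0.23, SE 0.05, adjusted p = 0.0249, edgeR; lost in 5 of 12 leave-one-out fits), and 10 did not pass. Their mean log2 CPM was 1.55 to 2.16 in WT and 1.24 to 1.93 in P278KY mice, with overlap. Their summed level was 213.4 to 260.8 CPM in WT and 188.8 to 218.0 in P278KY mice, most of it Tppp3 (183 ± 15.3 and 156 ± 6.22 CPM). Foxj1, the master regulator of motile cilia, was at 24.3 to 35.9 CPM in WT and 23.8 to 32.9 in P278KY mice. None of 13 axonemal dynein heavy chains (Dnah), the motors of motile cilia, passed with edgeR in either direction, and none with DESeq2; 1 was at an unadjusted p under 0.05. The part of ependymal RNA in the Kif19a result was not tested. Kif18a, the other kinesin-8 at this level, was at 2.45 to 3.47 CPM in WT and 1.93 to 3.25 in P278KY mice (adjusted p = 0.834).

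The 9 dynein light chain genes held 3 of the 5 motor genes that fell, and 0 rose. These small subunits sit at the base of the dynein tail, and those of the LC8 type also bind many proteins outside dynein. All 9 changes were negative on expected counts, as were 51.1% of those of all genes, and 2.95% of all genes fell and 2.36% rose. Of the 9 genes, 4 are Dynlt1 copies that share most of their sequence, so the 9 signs are not separate measurements. The 9 changes had a median of -0.13 (SE of single genes from 0.03 to 0.45), and the median was -0.09 on the TPM scale, where Dynlt1a was positive (0.06). Dynll1, an LC8 chain, was at 100.6 to 108.2 CPM in WT and 91.9 to 100.54 in P278KY mice. The ranges barely missed overlap, with WT female 1 at 100.6 and P278KY female 4 at 100.54 CPM. Its log2 change was -0.13 (SE 0.03, adjusted p = 0.0248, edgeR). Dynlt3, a Tctex-type chain, was at 146.3 to 158.8 CPM (median 153.9) in WT and 129.7 to 149.3 (median 136.4) in P278KY mice, with overlap, and changed by -0.16 (SE 0.04, adjusted p = 0.0271). Neither passed on the TPM scale (limma adjusted p = 0.297 and 0.123). With 1 library left out the call of Dynll1 was lost in 4 of 12 fits (without P278KY male 6, P278KY male 7, WT female 10 or WT male 11) and that of Dynlt3 in 7.

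The other chains at high level did not pass with edgeR. Dynll2 was at 865.2 to 1020 CPM in WT and 828.6 to 906.8 in P278KY mice (-0.12, SE 0.04, adjusted p = 0.120). It passed without WT female 1 (adjusted p = 0.0189) and with DESeq2 (0.0401). Dynlrb1, a roadblock-type chain, was at 82.3 to 89.6 and 76.3 to 83.5 CPM (-0.10, SE 0.03, adjusted p = 0.0956), and passed with DESeq2 (0.0495).

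**Figure D3:**
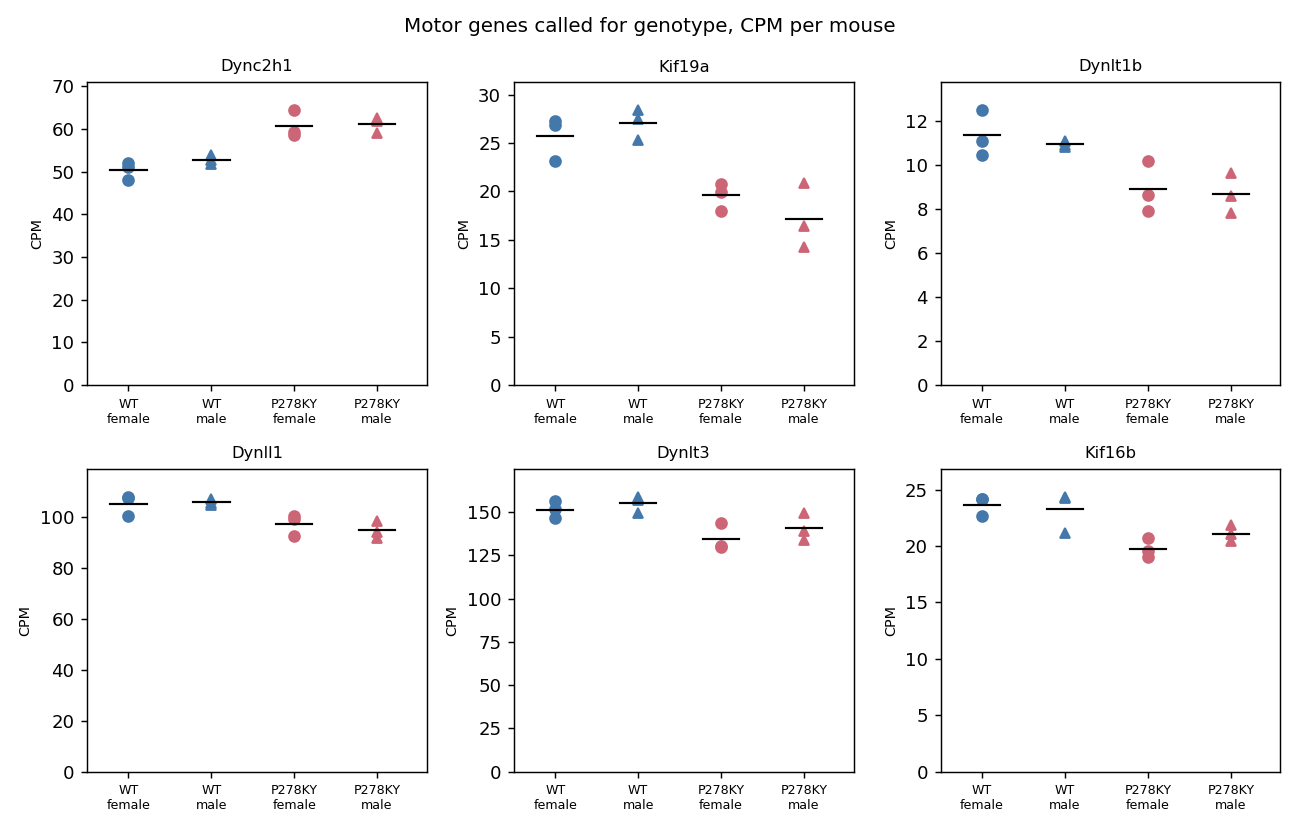
CPM per mouse of the 6 motor genes that passed the genotype test, with circles for females, triangles for males and a line at the mean of each group of 3. Dync2h1 is higher in all P278KY mice, and Kif19a, Dynlt1b and Dynll1 are lower in all P278KY mice, while Dynlt3 and Kif16b overlap.

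Dynlt1 exists in mouse as 4 gene copies on chromosome 17, Dynlt1a, Dynlt1b, Dynlt1c and Dynlt1f, and the counts of each depend on how reads were shared among them. In the GENCODE M21 transcripts all 4 coding sequences were 342 bases long, and those of Dynlt1a, Dynlt1c and Dynlt1f were identical. Dynlt1b differed from them by A21C, with Dynlt1b's base first and positions counted from the first base of the start codon. The first 60 coding bases are shown, with base 21 in capitals, because it is the 1 coding position that tells Dynlt1b from the others:
Dynlt1a: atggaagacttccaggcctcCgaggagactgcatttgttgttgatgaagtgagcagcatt
Dynlt1b: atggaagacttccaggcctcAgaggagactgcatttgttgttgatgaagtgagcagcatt
Dynlt1c: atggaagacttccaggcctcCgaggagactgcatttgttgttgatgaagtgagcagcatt
Dynlt1f: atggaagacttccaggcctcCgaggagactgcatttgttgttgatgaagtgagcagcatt
Of all 75-base stretches of their transcripts, the length of 1 read, 83.26% in Dynlt1f, 82.64% in Dynlt1b, 82.43% in Dynlt1c and 54.94% in Dynlt1a also occurred in another gene, mostly in each other. In 47 of the 52 motor genes that share was under 1%. The split of counts among the 4 copies is therefore uncertain.

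Dynlt1b fell in P278KY cord, with that limit. Its level was 12.5, 11.1 and 10.4 CPM in WT females 1, 2 and 10 and 10.8, 10.9 and 11.1 in WT males 5, 11 and 12. It was 10.2, 7.90 and 8.63 CPM in P278KY females 3, 4 and 9 and 7.82, 8.58 and 9.65 in P278KY males 6, 7 and 8. All WT mice were above all P278KY mice. The log2 change was -0.34 (SE 0.08, adjusted p = 0.0216, edgeR). The call was lost without P278KY female 4, P278KY male 6 (adjusted p = 0.0592), mice 1 to 4, or mice 7, 10 and 11.

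Dynlt1c and Dynlt1f split the mice in a way that did not follow genotype, a pattern chosen after its values were seen. Dynlt1c was at 41.0, 34.5 and 19.8 CPM in WT females 1, 2 and 10 and at 44.0, 38.2 and 18.0 in WT males 5, 11 and 12. It was at 18.2, 20.6 and 18.6 CPM in P278KY females 3, 4 and 9 and at 19.96, 46.8 and 19.3 in P278KY males 6, 7 and 8. Mice 1, 2, 5, 7 and 11 were thus high and the other 7 low. Dynlt1f was at 12.997, 11.4 and 3.75 CPM in the same WT females and at 10.2, 10.2 and 4.29 in the WT males. It was at 3.52, 3.30 and 5.02 CPM in the P278KY females and at 3.11, 11.99 and 3.81 in the P278KY males, high in the same mice. Neither passed for genotype (log2 change -0.48, SE 0.31, adjusted p = 0.454, and -0.81, SE 0.45, adjusted p = 0.355, edgeR). Dynlt1f passed without mice 7, 10 and 11 (-1.38, adjusted p = 0.0427, edgeR), a setting added after seeing the data. That setting leaves out mouse 7, the only high P278KY mouse, and mouse 10, a low WT mouse, along with mouse 11, a high WT mouse. Its pass follows the choice of mice left out, so it cannot decide on a genotype effect. Of the high mice 4 were WT and 1 was P278KY. Dynlt1a, the copy with the lowest share of shared stretches, was at 2.03 to 3.90 CPM in WT and 2.22 to 3.15 in P278KY mice. The sum of the 4 copies does not depend on how reads were split among them. It was 35.4 to 70.4 CPM in WT and 33.8 to 70.5 in P278KY mice, so the genotypes overlapped. All 4 copies also share 75-base stretches with the pseudogene Dynlt1-ps1, which is not in the sum.

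**Figure D4:**
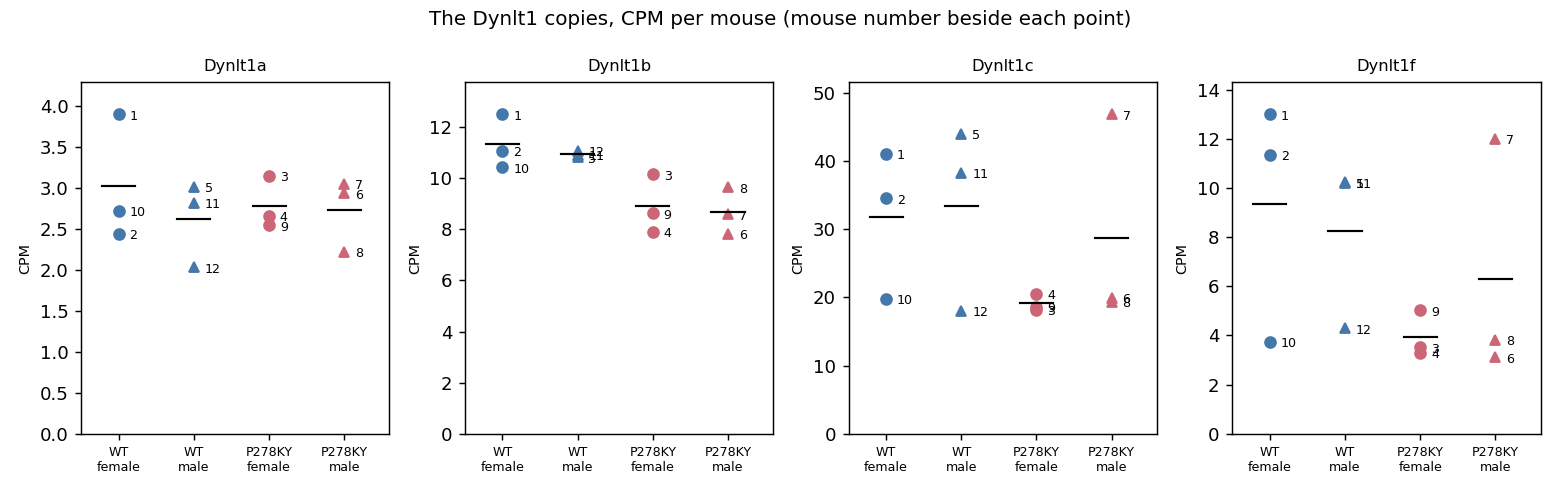
CPM per mouse of the 4 Dynlt1 copies, with the mouse number beside each point, circles for females, triangles for males and a line at the mean of each group of 3. Mice 1, 2, 5, 7 and 11 are high for both Dynlt1c and Dynlt1f, and Dynlt1a and Dynlt1b show no such split.

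Of 11 neighbouring genes on chromosome 17 looked at, 2 also separated mice 1, 2, 5, 7 and 11 from the others, and 9 overlapped. The share of all tested genes that separated these mice was not counted, so 2 of 11 has no background beside it. The noncoding gene Gm26848 (GENCODE M21, GRCm38, chr17:6314199-6493180, plus strand) overlaps part of Dynlt1a. All of Dynlt1b (chr17:6430112-6436296) lies within its bounds, on the same strand. Gm26848 was at 14.1, 11.8, 16.5, 17.6 and 13.1 CPM in mice 1, 2, 5, 7 and 11. In mice 3, 4, 6, 8, 9, 10 and 12 it was at 4.55, 4.66, 4.90, 5.24, 4.61, 3.75 and 3.77. Tagap1 (chr17:6955011-6961156, minus strand), a GTPase-activating protein gene, was at 21.8, 24.1, 25.3, 24.9 and 24.0 CPM in mice 1, 2, 5, 7 and 11. It was at 34.2, 33.1, 33.8, 32.5, 33.9, 33.6 and 34.4 in the same other mice, thus in the opposite direction. Neither passed for genotype (adjusted p = 0.502 and 0.342, edgeR). Ezr, between them, was among the 9 that overlapped, at 23.2 to 34.5 CPM in WT and 23.9 to 29.1 in P278KY mice. Across the 12 mice, with group means removed, the gene most like Dynlt1c was Gm26848 (Pearson r = 0.989). Gm16168 (0.985), Gm9825 (0.982), D430018E03Rik (0.979) and Rps2-ps13 (0.976) came next and were not among the neighbours looked at. Whether strain alleles in this interval differ among the mice was not tested.

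The RefSeq promoter windows of Dynlt1c (chr17:6601529-6601828, plus strand) and Dynlt1f (chr17:6655890-6656189, minus strand; GRCm38.p6) are shown because these copies moved together from mouse to mouse. They overlap by 192 aligned bases with 3 differences (98.44% identity): A26C, C52T and C90G, with Dynlt1c's base first and positions counted from the first base of its window, in capitals:
Dynlt1c: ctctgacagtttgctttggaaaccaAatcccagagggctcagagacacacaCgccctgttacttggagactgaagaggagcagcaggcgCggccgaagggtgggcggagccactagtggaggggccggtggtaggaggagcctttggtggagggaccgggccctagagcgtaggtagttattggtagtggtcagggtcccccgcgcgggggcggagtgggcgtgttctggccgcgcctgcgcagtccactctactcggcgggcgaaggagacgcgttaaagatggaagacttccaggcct
Dynlt1f: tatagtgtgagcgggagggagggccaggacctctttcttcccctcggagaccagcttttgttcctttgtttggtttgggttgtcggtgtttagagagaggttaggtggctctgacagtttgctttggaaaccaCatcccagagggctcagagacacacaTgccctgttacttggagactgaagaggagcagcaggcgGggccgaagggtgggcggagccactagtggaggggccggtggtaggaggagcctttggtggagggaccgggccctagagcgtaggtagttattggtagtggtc
The windows are set 108 bases apart in the alignment because the annotated starts differ. Both hold GGGCGG and CCAAT. Of the 75-base stretches of their transcripts, 82.43% in Dynlt1c and 83.26% in Dynlt1f also occurred in another gene, so their counts are not separate measurements. Whether these promoters act alike was not tested.

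Dync1h1, the heavy chain that carries the motor of cytoplasmic dynein 1, differed between the genotypes in the deposited transcript length more than in its level. Its level was 1023 to 1166 CPM in WT and 1136 to 1235 in P278KY mice (log2 change 0.08, SE 0.04, adjusted p = 0.289, edgeR). On the TPM scale, where reads are divided by length, the change was -0.09 (limma adjusted p = 0.374), with 205 ± 19.9 TPM in WT and 192 ± 6.64 in P278KY mice (SD, n = 6). The length column, which RSEM gives as the mean length of a gene's transcripts weighted by their estimated share, was 10991, 9046 and 10845 bases in WT females 1, 2 and 10 and 10445, 10891 and 9655 in WT males 5, 11 and 12. It was 12342, 12412 and 11597 in P278KY females 3, 4 and 9 and 12824, 11975 and 11593 in P278KY males 6, 7 and 8. Every P278KY mouse was above every WT mouse.

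The mean length was 10312 ± 792 bases in WT and 12124 ± 490 in P278KY mice (SD, n = 6; 1.18-fold). This gene was chosen after its values were seen. Of 16623 genes with a mean TPM of 1 or more the length varied among the mice in 10430, and it did not overlap between the genotypes in 37 of these (0.355%), and 3 of those 37 changed by as large a ratio, Dync1h1 included. Among the 35 motor genes whose length varied, the others' overlapped except for Kif24, a kinesin of the centriole, at 1434 to 1558 bases in WT and 1357 to 1431 in P278KY mice. GENCODE M21 lists 8 Dync1h1 transcripts: 1 of 14342 bases, and 7 of 427 to 851 bases, 6 of them retained introns. If the authors' annotation held the same transcripts, a longer weighted length is a higher estimated share of the long one. The deposited tables used here are per gene, so the single transcripts were not analysed here.

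**Figure D5:**
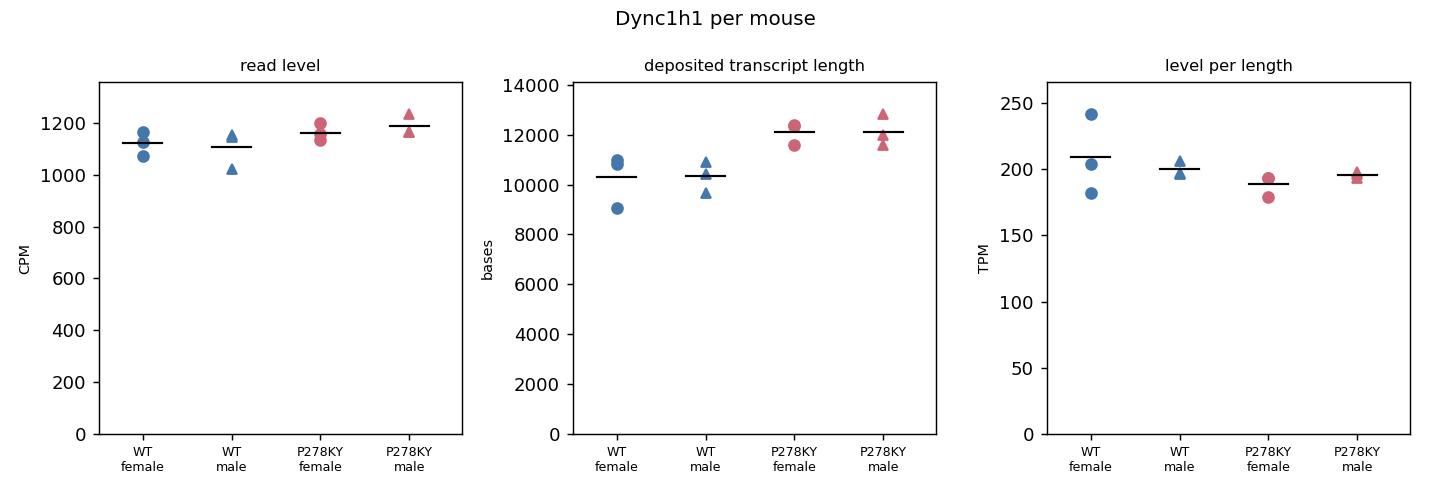
Dync1h1 per mouse as CPM, as the deposited transcript length in bases and as TPM, with circles for females, triangles for males and a line at the mean of each group of 3. The P278KY lengths lie between 11593 and 12824 bases, all above the WT lengths, while CPM and TPM overlap.

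No other subunit of cytoplasmic dynein 1 passed with edgeR. Dync1li1, a light intermediate chain that binds cargo adaptors, came nearest, at 69.6 to 79.2 CPM in WT and 65.2 to 74.5 in P278KY mice (-0.14, SE 0.04, adjusted p = 0.0529). It passed with DESeq2 (0.0128), with voom (0.0272), with the stricter filter (0.0438) and without WT female 2 (0.035) or P278KY male 8 (0.0401). Its paralog Dync1li2 changed by -0.01 (SE 0.06), and the intermediate chains Dync1i1 and Dync1i2, which link dynein to dynactin, by -0.04 (SE 0.05) and -0.02 (SE 0.03). Summed over the 5 subunits the level was 654 ± 42.5 TPM in WT and 654 ± 24.3 in P278KY mice.

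None of the 6 dynactin genes passed with edgeR or DESeq2, and 1, Dctn3, was at an unadjusted p under 0.05. Dctn1, the p150 subunit that grips dynein and the microtubule, was at 415.1 to 482.1 CPM in WT and 443.4 to 468.8 in P278KY mice (-0.02, SE 0.04, adjusted p = 0.843). Dctn3, a subunit of the shoulder complex, was at 45.0 to 52.0 and 41.8 to 47.6 CPM (-0.13, SE 0.04, adjusted p = 0.114). The family's median change was -0.02 on expected counts and 0.05 on the TPM scale. Of 6 dynactin genes whose symbols lie outside the naming rule, such as Actr1a, which forms the filament, none passed with edgeR or DESeq2 (3 at an unadjusted p under 0.05).

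None of the 3 kinesin-1 heavy chains or their 4 light chains passed with edgeR or DESeq2, and 1 of each (Kif5b and Klc3) was at an unadjusted p under 0.05. Kif5a was at 1422 to 1988 CPM in WT (median 1608) and 1544 to 1768 in P278KY mice (median 1581), with a log2 change of -0.03 (SE 0.06, adjusted p = 0.815). Kif5b, the heavy chain made in most cell types, was at 622.9 to 750.5 CPM and 550.7 to 658.4 (-0.14, SE 0.05, adjusted p = 0.131). Kif5c, the third, neuronal heavy chain, was at 749.2 to 976.6 and 794.6 to 860.6 CPM (-0.10, SE 0.05, adjusted p = 0.287), and passed only without WT female 1 (-0.14, adjusted p = 0.03), the library with the most muscle RNA. Klc1, at 512.9 to 636.8 CPM in WT and 555.7 to 574.7 in P278KY mice (-0.07, SE 0.05, adjusted p = 0.397), likewise passed only without that library (-0.12, adjusted p = 0.0141). Klc3, the light chain at the lowest level, had the largest positive estimate of any motor gene (0.31, SE 0.13, adjusted p = 0.202), at 1.11 to 1.35 CPM in WT and 1.204 to 1.69 in P278KY mice. The 3 heavy chains summed to 1006 ± 95.1 TPM in WT and 1015 ± 46.8 in P278KY mice.

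Of the 6 kinesin-3 genes, which carry vesicles and endosomes, Kif16b fell. Kif16b binds early endosomes and the receptors in them. It was at 22.7, 24.2 and 24.1 CPM in WT females 1, 2 and 10, at 24.4, 24.2 and 21.2 in WT males 5, 11 and 12, and at 19.1 to 21.8 in P278KY mice. WT male 12 lay within the P278KY range and the other WT mice above it. The change was -0.20 (SE 0.05, adjusted p = 0.028, edgeR), a call lost in 9 of the 12 leave-one-out fits. It was -0.03 on the TPM scale (limma adjusted p = 0.823), where the deposited length was 6082 bases on average in WT and 5736 in P278KY mice. Kif1a (-0.01, SE 0.04, adjusted p = 0.941), Kif1b, whose isoforms carry mitochondria and synaptic vesicle precursors (0.01, SE 0.03, adjusted p = 0.952), and Kif1c (-0.10, SE 0.04, adjusted p = 0.143) did not pass.

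The remaining kinesins did not pass on expected counts. Of the 4 kinesin-2 genes, Kif17, a homodimeric motor of dendrites and cilia, was at 7.09 to 9.91 CPM in WT and 8.84 to 9.78 in P278KY mice (0.17, SE 0.07, adjusted p = 0.204). On log2(TPM + 1) values it passed narrowly (0.22, limma adjusted p = 0.0489). Kif3a, Kif3b and Kif3c, the heavy chains of heterotrimeric kinesin-2, changed by -0.01, 0.05 and -0.03 (SE 0.04, 0.03 and 0.04). Kif21a, a kinesin-4 that restrains microtubule growth, changed by -0.08 (SE 0.03, adjusted p = 0.165), and passed without WT female 1 (adjusted p = 0.04). Kif26b, an atypical kinesin-11, was at 22.7 to 25.4 CPM in WT and 23.7 to 30.9 in P278KY mice (0.18, SE 0.07, adjusted p = 0.152). Kif11, the kinesin-5 of the mitotic spindle, Kif9, Kif22 and Kif2a had adjusted p of 0.547, 0.954, 0.986 and 0.636.

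Within each sex, with 3 mice a group, 1 motor gene passed. In females it was Dync2h1 (adjusted p = 0.0429; 0.573% of all genes passed) and in males Kif19a (adjusted p = 0.0236; 1.55% of all genes). No motor gene passed for the difference between the sexes in the genotype effect (0.0% of all genes); 2 of 52 were at an unadjusted p under 0.05, against 3.7% of all genes, and DESeq2 also gave 0 of 52 (0.324% of all genes). The smallest was that of Kif7, a regulator of Hedgehog signalling at the cilium tip, with changes of 0.17 (SE 0.11) in females and -0.24 (SE 0.11) in males (adjusted p = 1.0). Dync2li1 (-0.19, SE 0.08, and 0.09, SE 0.08) and Kif17 (0.30, SE 0.09, and 0.05, SE 0.09) came next. No motor gene passed for sex itself (0.089% of all genes; 6 of 52 at an unadjusted p under 0.05, against 8.95% of all genes; DESeq2 0 of 52, against 1.16%).

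Partners of the motors, from lists chosen with earlier results of these data known, changed in a few genes. Of 28 kinesin adaptors and cargo linkers 3 rose and 0 fell, where 2.36% of all genes rose and 2.95% fell; DESeq2 called 5 of the 28. Hap1, the huntingtin-associated adaptor of kinesin and dynactin, was at 192 ± 8.83 CPM in WT and 227 ± 11.9 in P278KY mice (0.24, SE 0.04, adjusted p = 0.00412). Htt, huntingtin, was at 167 ± 4.51 and 187 ± 5.42 CPM (0.16, SE 0.03, adjusted p = 0.00521). Caly, a vesicle protein of neurons, was at 47.3 ± 2.90 and 54.1 ± 2.57 CPM (0.20, SE 0.04, adjusted p = 0.0183, lost in 2 of 12 leave-one-out fits). Of 25 dynein activators and regulators 1 rose, Hook1, an adaptor of early endosomes (0.16, SE 0.04, adjusted p = 0.0299, lost in 7 of 12 leave-one-out fits), and DESeq2 called 3 of the 25. Bicd2, an adaptor of Golgi vesicles, did not pass with edgeR (-0.13, SE 0.04, adjusted p = 0.0753) and was among those 3. None of 6 kinesin genes outside the naming rule passed, Kifap3, the accessory subunit of kinesin-2, among them (0.01, SE 0.03); 1 of the 6 was at an unadjusted p under 0.05 and none passed with DESeq2.

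Of the track itself, 2 of 14 tubulin genes fell and 0 rose (2.95% and 2.36% of all genes), and DESeq2 called 5 of the 14. Tubb2b went from 157 ± 8.47 to 120 ± 8.31 CPM (-0.40, SE 0.05, adjusted p = 0.000626) and Tubb4b from 304 ± 8.55 to 271 ± 10.2 (-0.17, SE 0.03, adjusted p = 0.00898). Of 19 microtubule-associated proteins, Dcx, doublecortin, rose (0.32, SE 0.05, adjusted p = 0.00324) and Stmn2, a tubulin-binding protein of axons, fell (-0.27, SE 0.05, adjusted p = 0.00465), and DESeq2 called 3 of the 19. Of 15 pan-neuronal markers 3 rose and 0 fell, and their mean log2 CPM was 8.27 to 8.51 in WT and 8.40 to 8.47 in P278KY mice, lowest in WT female 1. The medians were -0.44 over the 21 motor neuron markers, -0.11 over the tubulins and 0.01 over the kinesin adaptors (all genes -0.003).

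Across the 12 mice, after the mean of each group of 3 was removed, the genes most like Kif5a in log2 CPM were Gm17491 (Pearson r = 0.963), Dcaf8 (0.936), Rbfox1 (0.935), 1500011B03Rik (0.924) and Gm26783 (0.922). Those most like Dync1h1 were Acot11 (0.982), Csnk2a1 (0.961), Kif16b (0.958), Nkx2-2os (0.948) and Esyt1 (0.944). Such values are the highest of 17980 and describe these mice, which also differ in muscle and ganglion RNA.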

How the data were processed

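RNA of whole spinal cord from 12 mice was sequenced by the authors as stranded, poly(A)-selected libraries. Per the submitters' processing notes, Bowtie2 2.2.0 and RSEM 1.2.12 were used. The authors deposited expected counts, which are RSEM estimates (per the file headers), in which a read is shared among matching genes. Values deposited as TPM are scaled by transcript length and library sum. The deposited FPKM values were not used. The deposited length column, in bases, was compared between genotypes for genes at 1 TPM or more. Build and annotation: not given in the sources used here. Positions come from GENCODE M21 by gene identifier.

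Expected counts were rounded and filtered with filterByExpr over the 4 groups (17980 genes left). They were scaled by TMM and tested with edgeR 4.0.16 (robust quasi-likelihood, sex plus genotype, or 4 group means for the sexes and the interaction) in R 4.3.3, at a Benjamini-Hochberg adjusted p of 0.05. Log2 CPM used a prior count of 2. Alternatives used DESeq2 1.42.0 and limma 3.58.1 (voom, and log2(TPM + 1) or log2(TPM + 0.1)), no filter or at least 1 CPM in 6 libraries, each library left out, and motor genes at 2 TPM or more. Others were added after seeing the data: no mice 1 to 4, no mice 7, 10 and 11, and mice 9 to 12, earlier seen to stand apart in clock genes, as a term. The script was tested on simulated data. Nothing says whether the mice share litters, so p-values measure the spread between these animals.

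Motor genes and lists were chosen with earlier results of these data known. The genes named are those that passed, the smallest p of each family, Kif5a, Kif5b, Kif5c, Kif1a, Kif1b, Dync1h1, Dctn1, the 3 smallest interaction p and up to 4 genes per list. Others are said to be chosen after their values were seen or are given for their family. RefSeq promoter sequences are of GRCm38.p6.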

Additional observations from a re-analysis of the deposited data

Results flagged for a closer look

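Within a genotype, the gap between the highest or lowest mouse and its nearest neighbour, divided by the whole range of the 6 mice, passed Dixon's limit in 7 of the 62 groups looked at (31 motor genes in each genotype). Chance flags about 1 in 20 groups, and the genes share mice. P278KY male 7 was high for Dynlt1c (46.84 CPM, others 18.16 to 20.55), Dynlt1f (11.99 CPM, others 3.111 to 5.021) and Kif5a (1768 CPM, others 1544 to 1592). WT female 1 was low for Kif1a (1499 CPM, others 1710 to 1779) and Dctn1 (415.1 CPM, others 460.4 to 482.1), and high for Dynlt1b (12.5 CPM, others 10.43 to 11.08). WT male 5 was high for Kif5b (750.5 CPM, others 622.9 to 665.5).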

How the results depend on the processing

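Dync2h1 and Kif19a passed, in the same direction, in all 22 settings run for them. Dynlt1b lost its call in 4, Dynll1 in 8, Dynlt3 in 11 and Kif16b in 13. No called gene changed sign. Of the 31 motor genes followed through the settings, 12 that did not pass changed sign in 50 of their values, none of which passed. The remaining motor genes are not in that count. The number of motor genes that fell (5 by edgeR) was 8 by DESeq2 and 2 on both TPM scales, without mice 1 to 4 and without mice 7, 10 and 11, and it ranged from 2 to 9 with 1 library left out (9 without WT female 1). The number that rose was 2 on both TPM scales, with Kif17 added. The motor genes' median log2 change was 0.03208 on log2(TPM + 1) and 0.03286 on log2(TPM + 0.1). Over all genes, 956 passed by edgeR, 1617 by DESeq2, 1467 by voom, 1606 and 1622 on the TPM scales, 557 without mice 1 to 4, 253 without mice 7, 10 and 11, and 542 to 1385 with 1 library left out (1385 without WT female 1). The causes were not tested. No paired analysis was possible because the mouse numbers are not shared between groups.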
